A study of Kluyveromyces lactis with 12 samples.

Results

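The effect of removing the transcription factor KlYap8 was compared between arsenite and tert-butyl hydroperoxide (t-BOOH) in the budding yeast Kluyveromyces lactis. The measurements were those of the 4 arsenite and the 4 t-BOOH arrays, 8 of the 12 two-colour Agilent arrays in all. The other 4 arrays, of untreated cells, gave a baseline and entered the shared estimate of the spread. On every array the Klyap8∆ strain and the wild type Klwt, kept under the same condition, were hybridised together with opposite dyes. Cells in exponential growth in YPD, a rich glucose medium, received sodium arsenite or t-BOOH for 30 min, or no stress. The t-BOOH concentration was 0.25 mM. The arsenite concentration is uncertain, since the samples' treatment labels read 25 mM whereas their protocol text reads 0.1 mM. The design text gives 4 biological experiments per condition, and the deletion strain was in Cy5 on 2 of the 4 arrays of each condition. The sources used here do not say whether the deletion strain is a single clone.

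Yap8, also named Arr1, is a bZIP transcription factor of the AP-1-like Yap family. In Saccharomyces cerevisiae it responds to arsenic compounds and activates the genes of an arsenate reductase, ARR2, and an arsenite exporter, while the relative Yap1 responds to peroxides such as t-BOOH and drives thioredoxin, glutathione and peroxidase genes. Arsenite binds thiols and unfolds proteins, and organic peroxides oxidise thiols and lipids, so both stresses draw on heat shock proteins, the proteasome and thiol redox enzymes. The functions given below are those of the S. cerevisiae genes with the same symbol.

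The ratio reported for each gene is that of the deletion strain over the wild type, on the log2 scale, and the difference is the arsenite ratio minus the t-BOOH ratio. A positive difference therefore says that the deletion strain stood higher relative to the wild type under arsenite than under t-BOOH. A gene was called where its Benjamini-Hochberg adjusted p from limma, over the 5069 genes tested, was under 0.05. Arsenite arrays lay on 1 slide with the untreated ones and t-BOOH arrays on another, so slide and stress cannot be told apart, although both strains shared every array. The ratios of a replicate correlated across genes with those of the other arrays of its condition at a mean of 0.444 to 0.600 for arsenite and 0.414 to 0.540 for t-BOOH, apart from t-BOOH replicate 3 at 0.03. The spread of the ratios over genes (SD) was narrowest on arsenite replicate 4 (0.195) and widest on t-BOOH replicate 1 (0.572), which also had the lowest median Cy3 intensity (719, against 1168.75 to 1610.25 on the other t-BOOH arrays). The residual spread was 0.243 for arsenite, 0.364 for t-BOOH and 0.321 for untreated arrays.

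Among the 5069 genes, 406 had a deletion ratio that differed between the stresses (8.01%), 230 of them higher under arsenite (4.54%) and 176 lower under arsenite (3.47%). The difference was at least 2-fold for 74 of the higher and 35 of the lower genes, and its median size over the 406 was 0.78. For 325 of the 406 the fitted ratios had opposite signs in the stresses, against 2238 of the 5069 genes tested. The 4 arsenite ratios did not overlap the 4 t-BOOH ratios for 330 of the 406 called genes, against 710 of all genes (14%). The genes were called on the difference between these same arrays, so neither the signs nor the lack of overlap is separate support for the calls. Genes called higher had a median ratio of 0.16 under arsenite, -0.62 under t-BOOH and 0.00 in untreated cells. Genes called lower had a median ratio of -0.32 under arsenite, 0.40 under t-BOOH and -0.08 in untreated cells. The t-BOOH ratio was the one further from the untreated ratio for 184 of the 230 higher and 116 of the 176 lower genes, against 3120 of the 5069 tested.

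**Figure D1:**
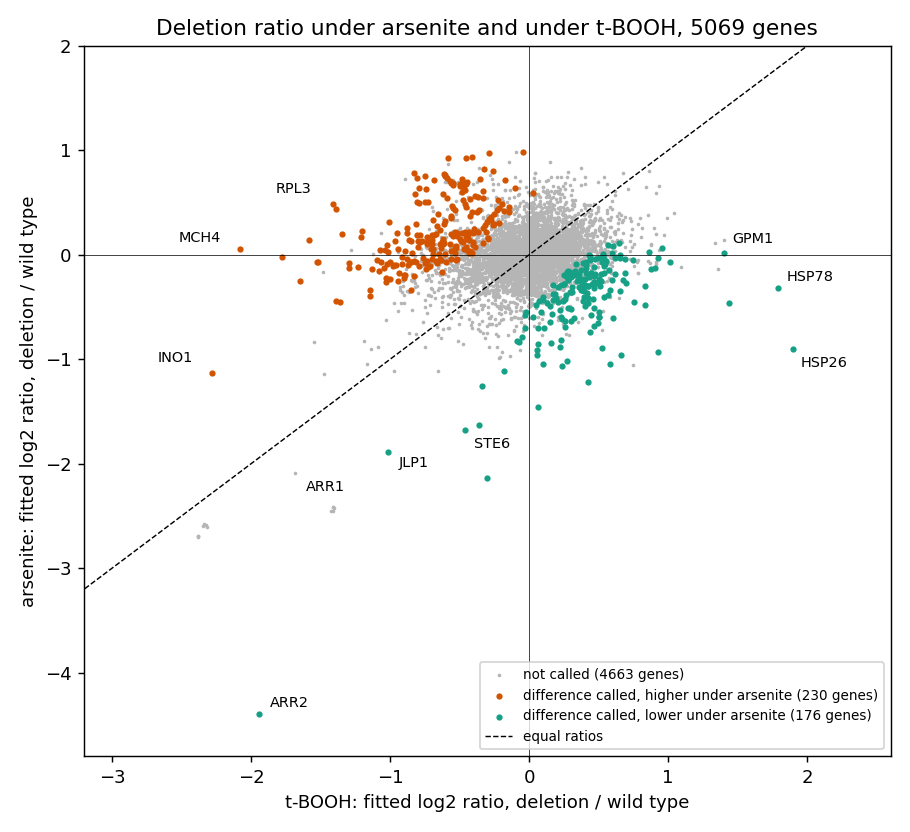
Fitted log2 ratio of deletion over wild type under arsenite (vertical axis) against that under t-BOOH (horizontal axis), 1 point per gene. The 230 genes called higher lie above the dashed line of equal ratios and the 176 called lower below it, and ARR2 is the lowest point on the arsenite axis at -4.40, with -1.95 under t-BOOH.

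The calls within each stress sorted these genes further. Of the 230 genes called higher in the difference, 169 were called lower under t-BOOH alone, 12 were called higher under arsenite alone, 48 were called in neither stress and 1 was lower in both. Of the 176 called lower, 93 were called higher under t-BOOH alone, 50 were called lower under arsenite alone, 25 were called in neither, 6 were called in opposite directions and 2 were lower in both. Over all genes tested, 0.907% were called higher and 3.39% lower in the deletion strain under arsenite, against 7.42% higher and 10.6% lower under t-BOOH. Set against the untreated arrays, the arsenite ratio differed for 2 genes (0.0395%), ARR2 and the sulfonate dioxygenase gene JLP1, and the t-BOOH ratio for 144 (2.84%). Both of these contrasts share the untreated arrays. The number of genes called in the difference was 44, 56, 82 and 418 without arsenite replicates 1 to 4 (0.868%, 1.1%, 1.62% and 8.25%), and 285, 37, 941 and 49 without t-BOOH replicates 1 to 4 (5.62%, 0.73%, 18.6% and 0.967%). It was 838 (16.5%) without t-BOOH replicates 1 and 3 together, and all 406 genes kept their sign in each of these fits. Since these fits reused most of the arrays on which the genes were called, the kept signs are not separate support.

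ARR2 (KLLA0E00243g), named after the arsenate reductase and a neighbour of the deleted gene, had the lowest difference among genes whose groups did not overlap. Its ratios were -4.19, -4.33, -4.40 and -4.68 on the arsenite arrays, -1.84, -2.05, -2.05 and -1.83 on the t-BOOH arrays and -1.46, -1.50, -1.58 and -2.06 on the untreated ones. Every arsenite ratio lay below every t-BOOH ratio, and the t-BOOH and untreated ratios overlapped. The difference of -2.45 (SE 0.16) was 5.48-fold (adjusted p = 1.03e-05). ARR1 (KLLA0E00265g), the deleted gene, had ratios of -2.20, -2.05, -2.19 and -1.93 under arsenite, against -1.79, -1.59, -1.56 and -1.81 under t-BOOH. These groups did not overlap either, and the difference of -0.40 (95% interval -0.77 to -0.03) was not called (adjusted p = 0.155). The sources used here do not place the ARR1 probe inside or outside the deletion, so its remaining signal has no set meaning.

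Of the 7 measured genes of arsenic detoxification and arsenite signalling, ARR2 and GET3 were called lower (28.6%, beside 8.01% of all genes). GET3 (KLLA0E01497g), the ATPase that delivers tail-anchored proteins to the endoplasmic reticulum and that was once named ARR4, had ratios of -0.55, -0.38, -0.26 and 0.17 under arsenite, against 0.76, 0.46, 0.33 and 0.47 under t-BOOH. Its groups did not overlap, and all 4 t-BOOH ratios were above 0 (difference -0.76, SE 0.16, adjusted p = 0.0196). The vacuolar pump YCF1 had a difference of -0.07 (95% interval -0.41 to 0.27) and the kinase HOG1 one of -0.05 (95% interval -0.48 to 0.38). The aquaglyceroporin FPS1, through which arsenite enters cells, had a difference of 0.49 (95% interval -0.15 to 1.14), which was not called. CUZ1 (KLLA0D10978g), a zinc finger protein of the proteasome and Cdc48 system that in S. cerevisiae counts among the genes raised by arsenite, had ratios of -1.39, -0.98, -1.05 and -0.40 under arsenite, against 1.35, 0.89, -0.59 and 0.98 under t-BOOH. All arsenite arrays and t-BOOH replicate 3 were below 0, the other t-BOOH arrays above it (difference -1.62, SE 0.35, adjusted p = 0.0198).

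The genes named here among the highest differences without overlap were called lower in the deletion strain under t-BOOH and not called under arsenite, apart from RPL30, which was called in neither stress. MCH4 (KLLA0A07249g), related to monocarboxylate transporters, had ratios of 0.06, 0.30, 0.01 and -0.14 under arsenite, against -2.84, -2.17, -0.83 and -2.48 under t-BOOH. Its difference was 2.14 (SE 0.33, adjusted p = 0.00795), the highest of all genes tested. KLLA0B07139g, without a symbol, had ratios of 0.65, 0.32, 0.72 and 0.06 under arsenite, against -2.24, -1.66, -0.01 and -1.65 under t-BOOH. For both genes t-BOOH replicate 3 lay nearest to the arsenite arrays.

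BIO4 (KLLA0B00407g) and BIO5 (KLLA0B00385g), a dethiobiotin synthetase and a transporter of a biotin precursor, were next to each other on chromosome B. BIO4 had ratios of -0.58, 0.73, 0.28 and -0.50 under arsenite, against -1.78, -1.81, -1.74 and -1.78 under t-BOOH, the t-BOOH arrays lying close together (mean -1.78, SD 0.03, n = 4). BIO5 had ratios of -0.28, 0.17, 0.15 and -0.30 under arsenite, against -1.81, -1.39, -1.28 and -1.62 under t-BOOH. Their differences were 1.76 (SE 0.32, adjusted p = 0.0134) and 1.46 (SE 0.24, adjusted p = 0.00935), and no array of either group entered the range of the other.

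CRC1 (KLLA0C13431g), the mitochondrial carnitine carrier, had ratios of 0.31, 0.51, -0.01 and -0.01 under arsenite, against -1.05, -1.52, -1.14 and -1.66 under t-BOOH (difference 1.54, SE 0.32, adjusted p = 0.0172). SPL2 (KLLA0D11066g), a regulator of low-affinity phosphate uptake, had ratios of 0.03, 0.14, -0.38 and -0.06 under arsenite, against -2.14, -1.79, -0.88 and -1.25 under t-BOOH. In both genes all 4 t-BOOH arrays were below all 4 arsenite arrays. The difference of SPL2 was 1.45 (SE 0.26), and that of KLLA0F11440g, with arsenite ratios of -0.36 to -0.12 and t-BOOH ratios of -2.40 to -1.12, was 1.40 (SE 0.24). The ribosomal protein genes RPL30 and RPS22B also stood among the 10 highest.

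**Figure D2:**
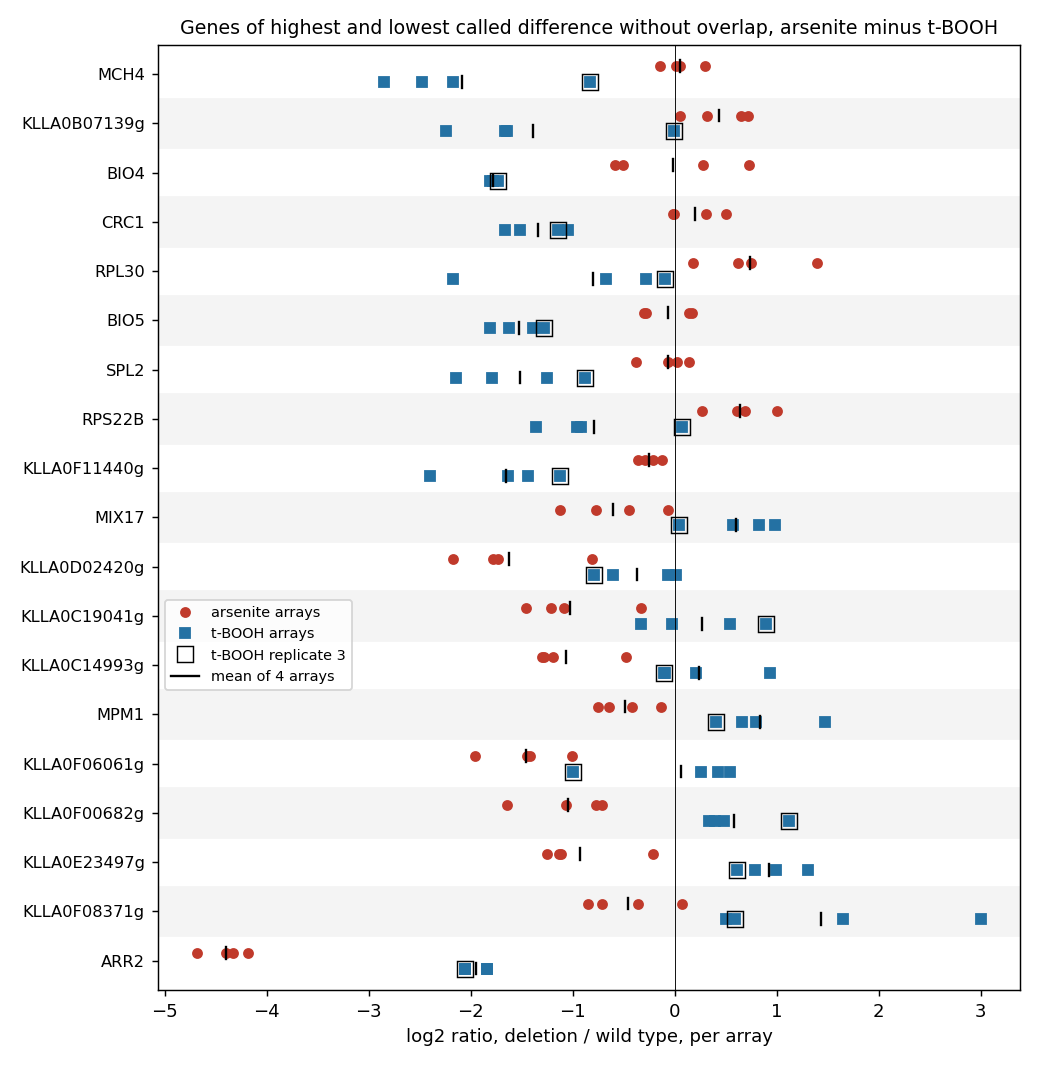
Log2 ratio of deletion over wild type on each arsenite array (circles) and t-BOOH array (squares) for genes of the highest and the lowest called differences whose groups did not overlap, t-BOOH replicate 3 outlined and means as bars. Among the genes above MIX17 the t-BOOH arrays reach down to -2.84 (MCH4); among the lower 10, ARR2 alone has all 8 arrays below -1.8.

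The lowest differences fell into genes lower in the deletion strain under arsenite, genes higher in it under t-BOOH, and genes of both kinds. KLLA0E23497g was called in opposite directions, with ratios of -1.14, -1.11, -1.25 and -0.21 under arsenite, against 0.99, 1.31, 0.61 and 0.79 under t-BOOH (difference -1.85, SE 0.25, adjusted p = 0.00371). KLLA0F00682g was another, with ratios of -0.71, -1.06, -1.64 and -0.77 under arsenite, against 0.34, 0.40, 1.12 and 0.48 under t-BOOH (difference -1.63, SE 0.25, adjusted p = 0.00795). Both were below 0 on every arsenite array and above 0 on every t-BOOH array, replicate 3 included.

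The other 4 genes called in opposite directions were singled out after their values were seen. They were MAG1, a DNA glycosylase that removes alkylated bases, YTH1, a factor of mRNA 3′ end formation, CIA2, of cytosolic iron-sulfur protein assembly, and HNT1, a nucleotide hydrolase. MAG1 (KLLA0E10363g) had ratios of -0.49, -0.37, -0.42 and -0.05 under arsenite, against 0.38, 0.31, 0.50 and 0.37 under t-BOOH (difference -0.72, SE 0.12). CIA2 had ratios of -0.60, -0.58, -0.56 and -0.24 under arsenite, against 0.37, 0.74, 0.16 and 0.33 under t-BOOH (difference -0.90, SE 0.15). For MAG1 and CIA2 the arsenite array nearest to 0 was replicate 4, as it was for YTH1 (0.04) and HNT1 (-0.03).

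Among genes lower under arsenite and not called under t-BOOH, KLLA0F06061g had ratios of -1.44, -1.42, -1.95 and -1.01 under arsenite, against 0.42, 0.26, -0.99 and 0.55 under t-BOOH (difference -1.52, SE 0.31, adjusted p = 0.0159). KLLA0D02420g had ratios of -1.74, -2.18, -1.78 and -0.81 under arsenite, against 0.01, -0.07, -0.79 and -0.61 under t-BOOH (difference -1.26, SE 0.28, adjusted p = 0.0212). In both, t-BOOH replicate 3 lay just above the arsenite range. KLLA0D02420g was dim, with a mean log2 level of 6.78 against a median of 11.49 over all genes. Its call was lost in 8 of 23 alternatives. KLLA0C19041g and KLLA0C14993g had differences of -1.29 and -1.30, with t-BOOH means of 0.27 ± 0.55 and 0.24 ± 0.49 (SD, n = 4), and neither was called under t-BOOH.

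Among genes higher under t-BOOH and not called under arsenite, MPM1 (KLLA0F01881g), a mitochondrial membrane protein, had ratios of -0.75, -0.64, -0.41 and -0.13 under arsenite, against 1.48, 0.66, 0.41 and 0.80 under t-BOOH (difference -1.32, SE 0.21, adjusted p = 0.00795). MIX17 (KLLA0C06094g), a protein of the mitochondrial intermembrane space, had ratios of -1.12, -0.77, -0.45 and -0.07 under arsenite, against 0.98, 0.58, 0.04 and 0.83 under t-BOOH (difference -1.21, SE 0.24, adjusted p = 0.0159). Both genes were below 0 on all arsenite arrays and above 0 on all t-BOOH arrays. KLLA0F08371g had arsenite ratios of -0.71, -0.35, -0.85 and 0.07 and t-BOOH ratios of 3.01, 1.66, 0.59 and 0.50, so that the t-BOOH arrays differed among themselves by more than the 1.90 that separated the groups.

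Of 19 gene lists, ribosomal proteins had the most members called higher and heat shock proteins the most called lower. Of the 57 measured cytosolic ribosomal protein genes, 34 (59.6%) were called higher and none lower, beside 8.01% of all genes called in either direction. All 57 genes had a difference above 0. Their median difference was 1.14, with quartiles of 0.94 and 1.29, beside a median of 0.00 over all genes tested. The median ratio was 0.67 under arsenite, -0.47 under t-BOOH and 0.09 in untreated cells. On all 4 arsenite arrays 54 of the 57 genes were above 0, against 823 of the 5069 genes tested.

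The median over these 57 genes was 0.62, 0.34, 1.33 and 0.26 on the arsenite arrays and -1.37, -0.32, 0.07 and -0.08 on the t-BOOH arrays. The groups did not overlap, but t-BOOH replicates 3 and 4 were near 0 and replicate 1, the dimmest array, was far below the rest. The number of ribosomal protein genes called was 1, 2, 2 and 22 without arsenite replicates 1 to 4, where 0.651%, 0.789%, 1.05% and 4.32% of all genes were called higher. It was 13, 0, 54 and 1 without t-BOOH replicates 1 to 4, where 2.9%, 0.493%, 10.4% and 0.612% of all genes were. Without t-BOOH replicates 1 and 3 together, 38 were called, beside 8.8% of all genes, and the median was 1.005. RPS22B (KLLA0B07931g), of the small subunit, had ratios of 0.61, 0.69, 1.01 and 0.27 under arsenite, against -1.36, -0.96, 0.08 and -0.92 under t-BOOH (difference 1.43, SE 0.26, adjusted p = 0.0139).

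RPL30 (KLLA0E10847g), of the large subunit, had ratios of 0.75, 0.62, 1.39 and 0.18 under arsenite, against -2.17, -0.68, -0.09 and -0.28 under t-BOOH (difference 1.54, SE 0.38, adjusted p = 0.0316). RPL3 (KLLA0F16511g) had the highest difference of the list at 1.90 (SE 0.42), and its groups overlapped through t-BOOH replicate 3 (0.16) and arsenite replicate 4 (0.03). Of 153 measured genes of ribosome biogenesis, which process ribosomal RNA and assemble subunits in the nucleolus, limma called none in the difference. An unadjusted p under 0.05 was found for 13 of them, against 1334 of the 5069 genes tested. Their median difference was 0.31, and their median ratio was 0.44 under arsenite and 0.14 under t-BOOH. The median difference was 0.07 without t-BOOH replicate 3, with 6 of the 153 genes then called lower, beside 8.17% of all genes. It was 0.44 without t-BOOH replicate 1, with 2 called higher, beside 2.9% of all genes. Without arsenite replicate 4 it was 0.47, with 5 called higher, beside 4.32% of all genes.

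**Figure D3:**
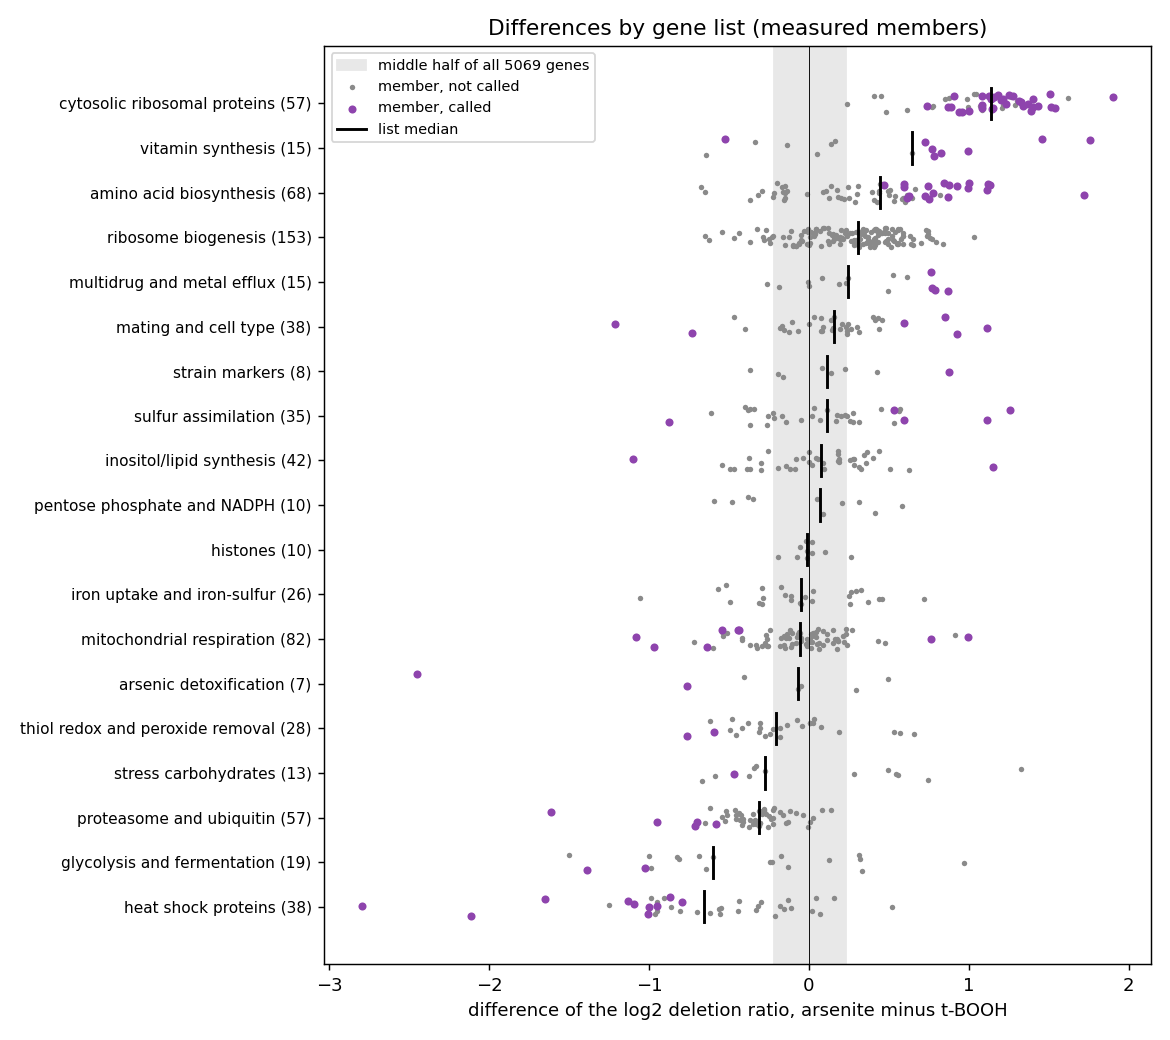
Difference of the log2 deletion ratio, arsenite minus t-BOOH, for the measured members of the 19 gene lists (numbers in brackets), called members in purple, list medians as bars and the interquartile range of all 5069 genes shaded. The ribosomal protein median is at 1.14 and the heat shock protein median at -0.66, outside the shaded range.

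Of 68 measured amino acid biosynthesis genes, 19 were called higher in the difference and none lower, with a median difference of 0.44 and 16 differences below 0. The called share was 27.9%, beside 8.01% of all genes. The median ratio on the single arrays was -0.06, -0.04, 0.06 and -0.08 under arsenite, -0.40, -0.46, -0.45 and -0.51 under t-BOOH and -0.05, -0.10, -0.18 and -0.22 in untreated cells. The 4 t-BOOH arrays lay close together, replicates 1 and 3 included, and below every arsenite and untreated array. Of the 68 genes, 42 were below 0 on all 4 t-BOOH arrays and 15 on all 4 arsenite arrays. Over all 5069 genes these counts were 808 and 899. Within the stresses, 2 of the 68 were called lower in the deletion strain under arsenite, against 38 called lower and 1 called higher under t-BOOH. Over all genes these shares were 3.39%, 10.6% and 7.42%. The number called higher was 6, 9, 7 and 17 without arsenite replicates 1 to 4 and 15, 5, 26 and 7 without t-BOOH replicates 1 to 4. Over all genes, 0.651%, 0.789%, 1.05% and 4.32% were called higher in the former fits and 2.9%, 0.493%, 10.4% and 0.612% in the latter. The median difference of the list stayed between 0.40 and 0.46.

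The arginine synthesis genes ARG8, ARG1, ARG3, ARG7 and ARG2, picked out after the values were seen, were called higher, ARG2 at 0.87. ARG4 (0.44) and CPA1 (0.18), also of arginine synthesis, were not called. ARG8 (KLLA0E21077g), the acetylornithine aminotransferase, had ratios of 0.22, 0.24, 0.43 and 0.13 under arsenite, against -0.93, -1.03, -0.64 and -0.92 under t-BOOH. All arsenite arrays were above 0 and all t-BOOH arrays below it (difference 1.13, SE 0.13, adjusted p = 0.00152). LYS2 (KLLA0B09218g), the aminoadipate reductase of lysine synthesis and a common strain marker, had ratios of -0.15, 0.25, 0.19 and 0.01 under arsenite, against -0.56, -0.75, -1.10 and -0.78 under t-BOOH (difference 0.87, SE 0.19, adjusted p = 0.0198). It was the single called gene among 8 strain markers (12.5%, beside 8.01% of all genes).

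Vitamin synthesis and uptake genes had called members mainly in the same direction. Of 15 measured genes for thiamine, biotin and pyridoxine, 7 were called higher and 1 lower, with a median difference of 0.65. Their called share was 53.3%, beside 8.01% of all genes. The median ratio was -0.25, 0.05, -0.10 and -0.14 on the arsenite arrays and -0.86, -0.75, -0.45 and -1.09 on the t-BOOH arrays, which did not overlap. Besides BIO4 and BIO5, the called genes were BUD16, BIO3, VHT1, THI2 and TPN1, with differences of 0.723 to 0.998, and PET18 (-0.53). BIO2, the biotin synthase, was called lower in the deletion strain under both stresses and had a difference of -0.13 (95% interval -0.59 to 0.32). THI4, the thiazole synthase, had a difference of 0.65 (SE 0.20) that was not called (adjusted p = 0.0631). The number called higher was 2, 2, 3 and 7 without arsenite replicates 1 to 4 and 5, 2, 8 and 2 without t-BOOH replicates 1 to 4. Among all genes, 0.651%, 0.789%, 1.05% and 4.32% were called higher in the former fits and 2.9%, 0.493%, 10.4% and 0.612% in the latter.

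Of 38 measured heat shock and chaperone genes, 10 (26.3%) were called lower and none higher, beside 8.01% of all genes called in either direction. The median difference was -0.66, and 5 differences were above 0. The median ratio was -0.28, -0.44, -0.06 and -0.01 on the arsenite arrays and 1.08, 0.58, -0.17 and 0.56 on the t-BOOH arrays. Replicates 1, 2 and 4 of t-BOOH were above all arsenite arrays, and replicate 3 was among them. Under arsenite 1 of the genes was called lower within that stress, beside 3.39% of all genes. Under t-BOOH 15 were called higher, beside 7.42% of all genes. The number called lower in the difference was 0, 0, 1 and 13 without arsenite replicates 1 to 4, where 0.217%, 0.316%, 0.572% and 3.93% of all genes were called lower. It was 4, 0, 22 and 0 without t-BOOH replicates 1 to 4, where 2.72%, 0.237%, 8.17% and 0.355% of all genes were, and 19 (beside 7.73%) without t-BOOH replicates 1 and 3 together.

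HSP26 (KLLA0F18909g), a small heat shock protein that holds unfolded proteins, had the lowest difference of all genes tested. Its ratios were -0.95, -0.87, -1.54 and -0.23 under arsenite, against 1.65, 2.99, -0.36 and 3.31 under t-BOOH (difference -2.79, SE 0.63, adjusted p = 0.0228). HSP78 (KLLA0E16897g), the disaggregase of the mitochondrial matrix, had ratios of -0.80, -0.54, -0.10 and 0.15 under arsenite, against 2.73, 2.05, -0.24 and 2.62 under t-BOOH (difference -2.11, SE 0.52, adjusted p = 0.0317). In both genes t-BOOH replicate 3 lay within the arsenite range and the other t-BOOH arrays were above 1.6. Without that replicate the differences were -3.57 for HSP26 and -2.84 for HSP78. Over the fits that left out 1 array, the differences nearest to 0 were -2.34 for HSP26 and -1.73 for HSP78. The call was lost in 6 of 24 alternatives for HSP26 and in 7 of 24 for HSP78.

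For glycolysis and fermentation genes t-BOOH replicate 3 again stood with the arsenite arrays. Of 19 measured genes, 2 were called lower and none higher, with a median difference of -0.60 and array medians of 0.07, -0.02, -0.13 and -0.01 under arsenite, against 0.96, 0.67, -0.01 and 0.34 under t-BOOH. GPM1 (KLLA0E11859g), the phosphoglycerate mutase, had ratios of -0.25, 0.34, -0.13 and 0.10 under arsenite, against 1.80, 1.45, 0.16 and 2.19 under t-BOOH (difference -1.39, SE 0.33, adjusted p = 0.0300). PGK1 (KLLA0A11011g), the phosphoglycerate kinase, had ratios of 0.04, -0.12, -0.27 and -0.14 under arsenite, against 1.47, 1.12, -0.24 and 1.27 under t-BOOH (difference -1.03, SE 0.28, adjusted p = 0.0466). For both genes t-BOOH replicate 3 overlapped the arsenite arrays, and PGK1 lost its call in 12 of 24 alternatives. Without that replicate 9 of the 19 genes were called lower and 2 higher, beside 8.17% and 10.4% of all genes. Without t-BOOH replicate 1 none of the 19 was called, beside 2.72% of all genes lower and 2.9% higher, and the median was -0.32.

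Of 57 measured proteasome and ubiquitin genes, 5 (8.77%) were called lower and none higher, beside 8.01% of all genes called in either direction. Of the differences, 53 were below 0 (median -0.31). The array medians were -0.29, -0.18, -0.06 and 0.02 under arsenite, against 0.16, 0.19, 0.22 and 0.27 under t-BOOH, without overlap and with t-BOOH replicate 3 in the middle of its group. The number called lower was 0, 0, 1 and 6 without arsenite replicates 1 to 4, and 4, 0, 7 and 0 without t-BOOH replicates 1 to 4. Over all genes, 0.217%, 0.316%, 0.572% and 3.93% were called lower in the former fits and 2.72%, 0.237%, 8.17% and 0.355% in the latter. NAS2 (KLLA0D14135g), a proteasome assembly chaperone, had ratios of -0.57, -0.62, -0.55 and 0.13 under arsenite, against 0.75, 0.83, -0.07 and 0.66 under t-BOOH (difference -0.95, SE 0.24, adjusted p = 0.0341). RPN13, PRE8 and DDI1 were the remaining called members beside CUZ1, with differences of -0.71 to -0.58.

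**Figure D4:**
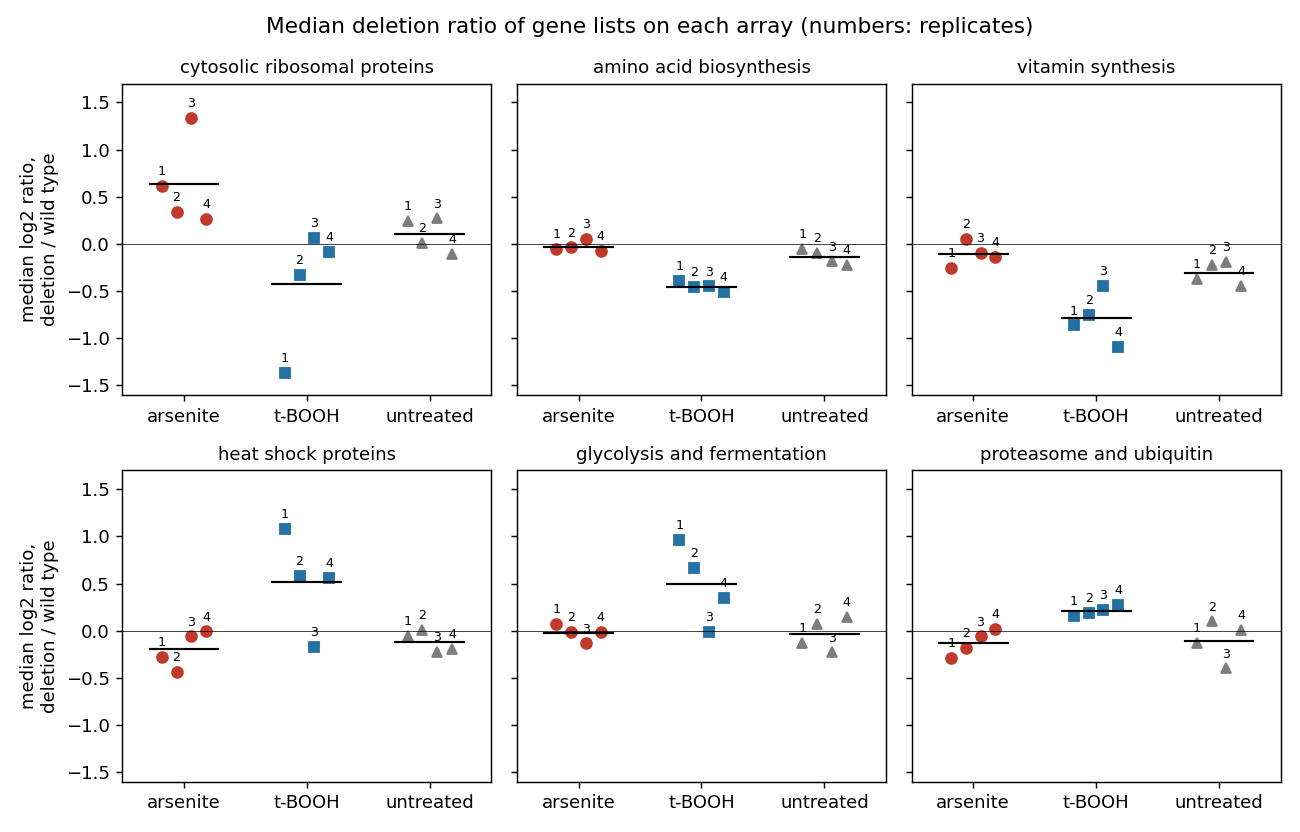
Median log2 ratio of deletion over wild type over the members of 6 gene lists on each array, with replicate numbers beside the points and bars at the mean of 4 arrays. The t-BOOH medians of amino acid biosynthesis lie between -0.51 and -0.40, whereas those of heat shock proteins run from -0.17 (replicate 3) to 1.08 (replicate 1).

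Genes of thiol redox and peroxide removal, the textbook targets of Yap1 in S. cerevisiae, had a share of called genes near that of all genes. Of 28 measured, 2 (7.14%) were called lower and none higher (median -0.20), beside 8.01% of all genes called in either direction. The number called lower was 0, 0, 0 and 2 without arsenite replicates 1 to 4, and 3, 0, 5 and 0 without t-BOOH replicates 1 to 4. Among all genes, 0.217%, 0.316%, 0.572% and 3.93% were called lower in the former fits and 2.72%, 0.237%, 8.17% and 0.355% in the latter. SRX1 (KLLA0F25938g), the sulfiredoxin that repairs peroxiredoxins, had ratios of -1.19, -0.89, -0.93 and -0.32 under arsenite, against 0.12, -0.38, 0.59 and -0.61 under t-BOOH (difference -0.76, SE 0.18, adjusted p = 0.0293). All arsenite ratios were below 0, and on the t-BOOH arrays it stood on both sides of 0. CCS1 (KLLA0F26917g), the copper chaperone of superoxide dismutase, had ratios of -0.72, -0.62, -0.32 and -0.20 under arsenite, against 0.03, 0.06, 0.39 and 0.02 under t-BOOH (difference -0.59, SE 0.15, adjusted p = 0.0326).

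Of 35 measured sulfur assimilation genes, 4 were called higher and 1 lower (14.3%, beside 8.01% of all genes), with a median of 0.11. The number called higher was 1, 1, 2 and 4 without arsenite replicates 1 to 4, and 3, 1, 7 and 1 without t-BOOH replicates 1 to 4. Shares of all genes called higher were 0.651%, 0.789%, 1.05% and 4.32% in the former fits and 2.9%, 0.493%, 10.4% and 0.612% in the latter. SEO1 (KLLA0D12716g), a putative permease, had ratios of 0.48, 0.66, 0.63 and 0.27 under arsenite, against -1.09, -1.01, -0.19 and -0.69 under t-BOOH (difference 1.26, SE 0.20, adjusted p = 0.00795). MET1 (KLLA0F16170g), which makes the sirohaem of sulfite reductase, had ratios of 0.59, 0.02, 0.25 and 0.33 under arsenite, against -0.59, -0.45, -1.30 and -0.91 under t-BOOH (difference 1.11, SE 0.23, adjusted p = 0.0168). Both genes were above 0 on all arsenite arrays and below 0 on all t-BOOH arrays. JLP1 (KLLA0F26158g) was lower in the deletion strain under both stresses, at -2.06, -2.45, -1.86 and -1.18 under arsenite, against -1.23, -0.92, -0.50 and -1.41 under t-BOOH, and was called lower in the difference (-0.88, SE 0.25, adjusted p = 0.0490) with groups that overlapped.

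Of 15 measured multidrug and metal efflux genes, 4 were called higher and none lower (26.7%, beside 8.01% of all genes), with a median of 0.24. The number called higher was 0, 0, 1 and 4 without arsenite replicates 1 to 4, and 3, 0, 6 and 0 without t-BOOH replicates 1 to 4. Over all genes, 0.651%, 0.789%, 1.05% and 4.32% were called higher in the former fits and 2.9%, 0.493%, 10.4% and 0.612% in the latter. PDR12 (KLLA0B09702g), the pump for weak organic acids, had ratios of 0.21, 0.21, -0.32 and -0.35 under arsenite, against -0.65, -0.99, -0.70 and -1.07 under t-BOOH (difference 0.79, SE 0.18, adjusted p = 0.0244). WAR1, its activator, was also called (0.77), together with AQR1 and RSB1. RSB1 (KLLA0F16082g), which moves sphingoid bases across the membrane, had ratios of -0.12, 0.06, -0.13 and -0.19 under arsenite, against -1.34, -1.37, -0.12 and -1.05 under t-BOOH (difference 0.87, SE 0.23, adjusted p = 0.0397), with t-BOOH replicate 3 among the arsenite arrays and the call lost in 10 of 24 alternatives.

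Of 38 measured mating and cell type genes, AGA2, STE2, FAR1 and STE3 were called higher and KAR4 and STE6 lower (median 0.16). The called share was 15.8%, beside 8.01% of all genes. None of the 38 was called without t-BOOH replicate 2 or 4, where 0.73% and 0.967% of all genes were. Without arsenite replicate 1, 2 or 3, 1 was called higher and none lower, beside 0.868%, 1.1% and 1.62% of all genes called. Without t-BOOH replicate 1, 1 was called higher and 2 lower, beside 5.62% of all genes called. STE6 (KLLA0B14256g), the exporter of the a-factor pheromone, had ratios of -2.14, -2.03, -1.91 and -0.61 under arsenite, against -0.51, -0.47, -0.32 and -0.56 under t-BOOH. Arsenite replicates 1 to 3 were far below the t-BOOH arrays, and replicate 4 was just below them (difference -1.21, SE 0.34, adjusted p = 0.0483). This call was lost in 15 of 24 alternatives, with the authors' deposited table, the processed signals and 8 of the 12 fits that left out 1 array among them. AGA2 (KLLA0E10891g), a subunit of the a-agglutinin, had ratios of 0.04, -0.01, -0.12 and -0.36 under arsenite, against -0.90, -1.14, -1.56 and -1.31 under t-BOOH (difference 1.11, SE 0.31, adjusted p = 0.0466), a call lost in 10 of 24 alternatives.

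Of 82 measured mitochondrial respiration genes, 2 were called higher and 6 lower, with a median of -0.06. The called share of 9.76% was near the 8.01% of all genes. The number called lower was 2, 2, 2 and 4 without arsenite replicates 1 to 4, where 0.217%, 0.316%, 0.572% and 3.93% of all genes were. It was 2, 2, 9 and 2 without t-BOOH replicates 1 to 4, where 2.72%, 0.237%, 8.17% and 0.355% of all genes were. MAM33 (KLLA0C07711g), an acidic protein of the mitochondrial matrix, had ratios of -0.06, -0.23, 0.18 and -0.16 under arsenite, against 1.17, 1.09, 1.02 and 0.78 under t-BOOH (difference -1.08, SE 0.17, adjusted p = 0.00795), the 4 t-BOOH arrays close together and above all arsenite arrays. CYB2 (KLLA0D02640g), the lactate dehydrogenase cytochrome b2, had ratios of 0.05, 0.63, -0.24 and 0.31 under arsenite, against -0.40, -1.02, -0.85 and -0.95 under t-BOOH (difference 0.997, SE 0.19, adjusted p = 0.0145). The copper chaperone COX17 was among the 6 called lower (-0.97, SE 0.16).

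INO1 (KLLA0D16412g), the inositol phosphate synthase that begins inositol synthesis, was the single gene lower in the deletion strain under both stresses and called higher in the difference. Its ratios were -1.33, -1.11, -1.42 and -0.66 under arsenite, -2.06, -2.24, -2.26 and -2.57 under t-BOOH and -1.28, -1.14, -0.92 and -1.22 in untreated cells. The arsenite and untreated arrays overlapped and the t-BOOH arrays were all lower (difference 1.15, SE 0.14, adjusted p = 0.00209). ERG2 (KLLA0F06336g), a sterol isomerase of ergosterol synthesis, was the other called member of the 42 measured inositol, phospholipid and sterol genes, at -1.15, -1.24, -0.66 and -0.47 under arsenite, against -0.12, 0.57, -0.21 and 0.65 under t-BOOH (difference -1.10, SE 0.22, adjusted p = 0.0159). Of 13 stress carbohydrate genes, GLC3, the glycogen branching enzyme, was called (difference -0.47, SE 0.13, adjusted p = 0.0499), and lost the call in 20 of 24 alternatives. Called shares were 4.76% of the 42 and 7.69% of the 13 genes, beside 8.01% of all genes. Among 10 pentose phosphate, 26 iron uptake and 10 histone genes limma called none. An unadjusted p under 0.05 was found for 4, 6 and 0 in turn, against 1334 of the 5069 genes tested. The histone differences ran from -0.19 to 0.26.

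Another set of genes had low ratios under both stresses and no called difference. There were 39 genes lower in the deletion strain under arsenite and under t-BOOH without a call in the difference, and 5 higher in both. Among the 39 were 12 of the 34 genes that are the 3 outermost of a chromosome end, with median ratios of -2.58 under arsenite, -2.32 under t-BOOH and -2.21 in untreated cells. Their differences ran from -1.04 to -0.24, all below 0. In 5 of them, singled out after their values were seen, the interval of the difference did not reach 0 although it was not called, as in KLLA0C00110g (-1.04, 95% interval -1.71 to -0.37). On each array these 5 genes had nearly the same ratio, so they are not independent measurements, and their probes may measure copies of one family. The other 27 genes had median ratios of -0.70 under arsenite and -0.63 under t-BOOH, with differences of -0.40 to 0.41. Of the 34 outermost genes, 2 (5.88%) were called lower, KLLA0A12089g and KLLA0C19547g, and none higher, beside 8.01% of all genes called in either direction. KLLA0C19547g had ratios of -2.53, -2.24, -2.84 and -0.94 under arsenite, against -1.22, -0.36, 0.58 and -0.23 under t-BOOH (difference -1.83, SE 0.38, adjusted p = 0.0180). Its groups overlapped through arsenite replicate 4 and t-BOOH replicate 1.

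The levels of the single strains were described by separate-channel log2 intensity after normalization between arrays, without a test, since the stresses lay on different slides. Among the 230 genes called higher, the median change of the level, arsenite minus t-BOOH, was -0.23 in the deletion strain and -1.17 in the wild type. Among the 176 called lower it was -0.05 in the deletion strain and 0.70 in the wild type. The change was larger in the wild type for 182 of 230 and 121 of 176 genes, against 2872 of the 5069 tested.

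MCH4 stood at 11.38 ± 0.06 in the deletion strain and 11.32 ± 0.16 in the wild type under arsenite, and at 12.37 ± 0.84 in the deletion strain and 14.45 ± 0.57 in the wild type under t-BOOH (SD, n = 4 each). MAM33 stood at 14.08 in the deletion strain and 14.15 in the wild type under arsenite, and at 13.43 in the deletion strain and 12.41 in the wild type under t-BOOH. ARR2 was the reverse case, with the distance between strains widest under arsenite, at 8.70 ± 0.16 in the deletion strain and 13.10 ± 0.35 in the wild type. Under t-BOOH it stood at 9.35 ± 0.35 in the deletion strain and 11.30 ± 0.30 in the wild type. KLLA0E23497g was lower in the deletion strain under arsenite, at 9.12 against 10.05 in the wild type, and higher in it under t-BOOH, at 10.87 against 9.95 in the wild type.

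**Figure D5:**
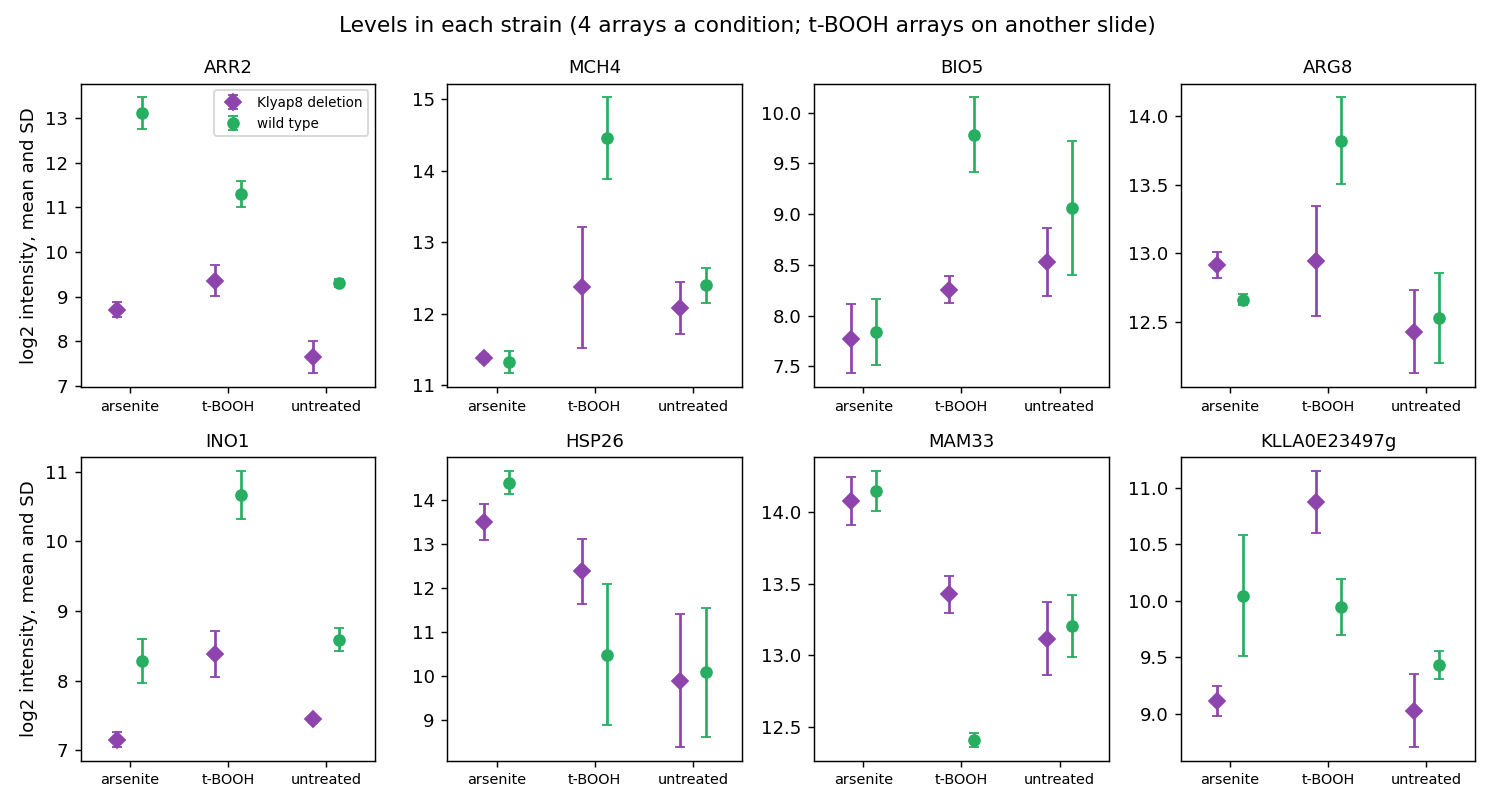
Separate-channel log2 intensity of 8 genes in the Klyap8 deletion strain (diamonds) and the wild type (circles) under arsenite, under t-BOOH and in untreated cells, as mean and SD of 4 arrays. For MCH4, BIO5, ARG8 and INO1 the wild type stands above the deletion strain by the most under t-BOOH, and for ARR2 under arsenite.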

How the data were processed

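The deposited scans held spot and background intensity in Cy5 and Cy3, extracted with Feature Extraction 10.7.3.1, per the file headers. That software also gave processed intensities and a log10 ratio of red over green, per the file headers. The authors' deposited value table held log2 ratios of deletion over wild type, as found by setting it against the scans (r of 0.991 to 0.999, column medians of -0.027 to 0.012). Its normalization and centring are not given in the sources used here.

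Median signals were corrected with normexp (offset 50), normalized within arrays by loess in limma 3.58.1 (R 4.3.3), turned to deletion over wild type and averaged over the spots of a gene. A filter that asked for a signal well above background, in Cy5 or Cy3, on 4 or more arrays kept 5069 of 5081 genes, and no spot was saturated. The fit over all 12 arrays had conditions and a dye term, 8 residual degrees of freedom and eBayes moderation, and was tested on simulated data. Same-numbered arsenite and t-BOOH arrays had correlations of deviations of -0.34 to -0.07. These arrays had opposite dye orientations and the deviations were not corrected for dye, so this check cannot decide whether the numbers are pairs. The main fit did not use them as pairs. Symbols came from RefSeq (5069 genes matched, 3955 with a symbol), mostly those of S. cerevisiae counterparts.

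The text names the 10 highest and 10 lowest called genes without overlap, from each list the 2 called members furthest from 0, ARR1 and ARR2. The result of 1 gene that meets this rule is not reported here. Genes outside this rule, which include all other named list members, were chosen after their values were seen. Members and lists were chosen with earlier results of these data known. Alternatives changed the background correction, normalization, filter, weights, dye term, arrays and replicate block.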

Additional observations from a re-analysis of the deposited data

Results flagged for a closer look

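The deletion ratio of 406 genes differed between arsenite and t-BOOH by the contrast of the limma fit, and 6 genes were called lower in the deletion strain under arsenite and higher under t-BOOH. These values are described in the report.

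In 132 groups of 4 arrays, a gap between 1 array and the rest stood out 8 times, and chance gives about 1 in 20. Arsenite replicate 4 was the array apart in 5 cases. Its ratios were 0.13 for NAS2, -0.61 for STE6, -0.48 for KLLA0C14993g and -0.21 for KLLA0E23497g, each higher than on the other arsenite arrays, and its mean correlation with its group was 0.444. This array also had the narrowest ratios (SD 0.195).

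The other 3 cases were t-BOOH replicate 3. Its CCS1 ratio of 0.39 was above those of the other t-BOOH arrays. The median of ribosome biogenesis genes on it was -0.49, against 0.33 to 0.42 on the other t-BOOH arrays, and the histone median was 0.006, against 0.34 to 0.41.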

How the results depend on the processing

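The 406 calls, with 230 higher and 176 lower, varied with which arrays entered the fit and how they were weighted. Leaving out 1 of the 12 arrays at a time gave 37 to 941 calls, with 25 to 527 higher and 11 to 414 lower, the lowest total without t-BOOH replicate 2 and the highest without t-BOOH replicate 3. With the 8 arsenite and t-BOOH arrays alone there were 164 calls (105 higher, 59 lower). Weights per array gave 2364 calls (1172 higher, 1192 lower), with a weight of 6.22 on t-BOOH replicate 2 and 0.23 on replicate 3. Without t-BOOH replicates 1 and 3, a choice made after seeing the data, there were 838 (446 higher, 392 lower). The cause of these changes was not tested.

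Background correction, normalization, filter, dye term, weights per condition and the authors' deposited value table gave 333 to 426 calls. With the replicate number as a block there were 347 calls (219 higher, 128 lower). The correlation check could not decide whether the numbers pair the arrays, since same-numbered arrays had opposite dye orientations. Ribosomal protein calls numbered 34 in the report, 49 with the block, 26 with the processed signals and 5 with median centring or with 8 arrays. All 406 genes kept their sign in every setting that measured them. With 8 arrays, weights per condition or no dye term, the estimates of the named genes did not change at all. The other settings reused most of the same data, so the kept signs are not separate support for the calls. Of 1055 alternative values of the 44 named genes, 204 lost and 1 (ARR1) gained a call, and none reversed. Genes called in every alternative included MCH4, BIO4, BIO5, KLLA0F11440g, SEO1, INO1, ARG8, MAM33, MPM1, KLLA0F00682g, KLLA0E23497g and ARR2. The number of arrays limits the precision.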

Other observations

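Genes called in the difference were set against their neighbours in the RefSeq gene order. Of 5036 pairs of neighbouring genes, 44 had both members called (0.874%), 22 with both higher, 10 with both lower and 12 in opposite directions. BIO5, BIO4 and BIO3 formed a run of 3 on chromosome B, with differences of 1.46, 1.76 and 0.83. MCH4 followed KLLA0A07194g and KLLA0A07227g, which had differences of 1.16 and 1.61. DDI1, a ubiquitin receptor of the proteasome, and MAG1 were neighbours at -0.71 and -0.72. GPA2, a G protein alpha subunit, stood beside CUZ1 at -1.18, and GPI2, of membrane anchor synthesis, beside KLLA0E23497g at -0.84. A pair in opposite directions was HSP78 at -2.11 and YSP2, a sterol transfer protein, at 0.54. These pairs were picked after their values were seen, and no test was made of them.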
